A study of Mus musculus with 13 samples.

Results

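The genes described here are the 10 collagen genes of the basement membrane and of type VI collagen that were followed in mouse pancreas: Col4a1, Col4a2, Col4a3 and Col4a5 (type IV), Col15a1 and Col18a1 (types XV and XVIII), and Col6a1, Col6a2, Col6a3 and Col6a6 (type VI). They were chosen by name, through their Entrez identifiers, and all 10 were found among the 23366 genes of the expression table. RNA from whole pancreas was sequenced in 13 female mice, with 1 library per mouse. All mice carried the same inducible transgene for the factors OCT4, SOX2, KLF4 and MYC (OSKM), which doxycycline in the drinking water switches on and which sits in the Pparg locus. The young group held 4 mice of 13 weeks and the old group 5 mice of 55 weeks, none of them given doxycycline. The old-OSKM group held 4 old mice, labelled 58 weeks, that received doxycycline for 1 week and then recovered for 2 weeks. No mice given doxycycline without the transgene were part of the comparison, so OSKM and the drug in sweetened water cannot be told apart. The cassette is not expressed evenly over cell types by the study's description, and the RNA here came from the whole organ.

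Basement membranes are thin sheets of matrix beneath epithelia and around vessels, nerves, fat and muscle cells. Their scaffold is a covalent network of type IV collagen joined to a laminin network by nidogens and the proteoglycan perlecan, with types XV and XVIII as collagens that also carry proteoglycan chains, the latter being the source of the fragment endostatin. Type VI collagen forms beaded microfilaments at the interface of the basement membrane with the connective tissue, and in most tissues it is made by fibroblasts and other mesenchymal cells.

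These collagens share the glycine repeat of the triple helix, but their longest unbroken repeats are shorter than those of the fibril-forming chains Col1a1 and Col3a1. Stretches of 90 coding bases from the start of the longest unbroken repeat are shown for a member of each family, and for both partners of the main type IV chain pair, with the glycine codons in capitals. They come from the longest open reading frame found among each gene's GENCODE M21 transcripts (build GRCm38), on the coding strand.
Col4a1: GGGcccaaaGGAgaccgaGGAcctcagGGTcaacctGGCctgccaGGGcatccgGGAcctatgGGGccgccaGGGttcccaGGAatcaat
Col4a2: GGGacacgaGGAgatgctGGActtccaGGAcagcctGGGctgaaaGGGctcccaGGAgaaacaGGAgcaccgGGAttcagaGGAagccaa
Col15a1: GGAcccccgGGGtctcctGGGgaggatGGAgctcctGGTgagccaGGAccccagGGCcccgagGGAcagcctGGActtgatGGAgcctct
Col6a1: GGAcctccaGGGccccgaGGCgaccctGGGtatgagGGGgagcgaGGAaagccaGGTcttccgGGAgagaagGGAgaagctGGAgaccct
Col6a3: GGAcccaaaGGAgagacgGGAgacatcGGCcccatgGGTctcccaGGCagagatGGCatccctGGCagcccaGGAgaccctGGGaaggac

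In Col4a1 the repeat was broken into 18 runs of at least 10 triplets, the longest of 40, and these runs held 73.3% of its codons. In Col15a1 and Col18a1 the longest run was 30 triplets, and the runs held 15.8% and 21% of the codons. Col6a1 and Col6a2 each had a longest run of 87 triplets within a chain that is mostly non-helical, and Col6a3, the longest member with 2677 codons, had 12.3% of its codons in such runs. The fibrillar chains Col1a1 and Col3a1 each had 2 runs by the same count, and the longest were of 338 and 344 triplets.

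**Figure D1:**
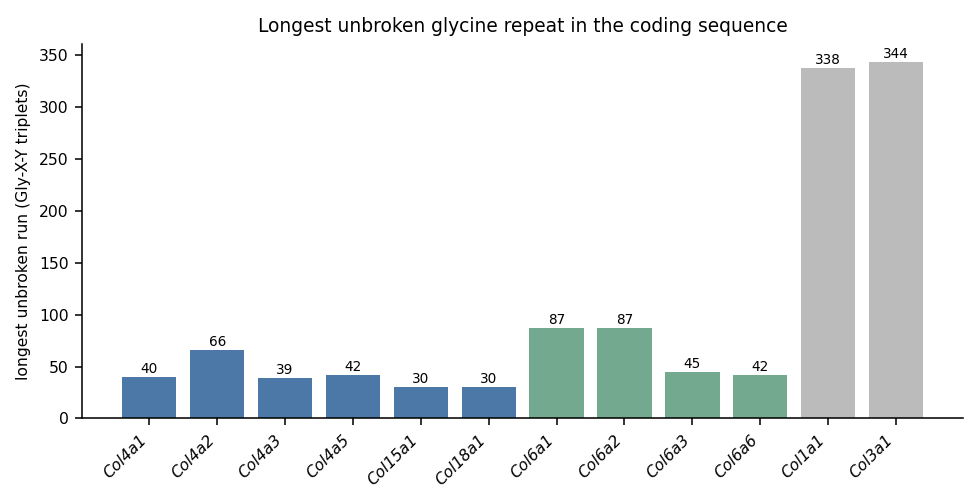
Bars give the longest unbroken run of glycine-X-Y triplets in the coding sequence of each gene (blue, type IV, XV and XVIII chains; green, type VI chains; grey, fibrillar chains). The 10 members lie between 30 and 87 triplets, and Col1a1 and Col3a1 at 338 and 344.

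Several members are neighbours in the genome. Col4a1 (8:11198423-11312889, minus strand) and Col4a2 (8:11312805-11449287, plus strand) lie head to head in RefSeq's GRCm38.p6 annotation. In RefSeq's promoter table both transcripts begin within the same 22 bases, on opposite strands, and run apart from there. The levels of this pair moved together in these mice, as did those of members that share no start, such as Col6a1 and Col6a2. Whether the shared start has a part in this was not tested. The 22 bases, chr8:11312805-11312826 on the plus strand, are shown as a description only, and the capitals mark a GC box, GGGCGG.
Col4a1 and Col4a2 starts: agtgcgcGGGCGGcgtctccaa

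GC boxes, searched on both strands, occur in 32.7% of the 32851 mouse promoter windows of 250 bases in the RefSeq table. Those windows lie upstream of the starts and are longer than the 22 bases shown, so this share is no background for the match. The match is a description of the sequence only. The full gene models overlap by 85 bases, and how reads on that overlap were assigned is not given in the sources used here. Col6a1 (10:76708792-76726044) and Col6a2 (10:76595756-76623630) are both on the minus strand, 85161 bases apart with 0 protein-coding genes between them, and Col18a1 (10:77052178-77166530) lies on the same chromosome. Col4a3 (1:82586921-82722059) lies head to head with Col4a4, and Col4a5 (X:141475370-141689236) beside Col4a6. Col6a3 is at 1:90766860-90844001, Col6a6 at 9:105689417-105828246 and Col15a1 at 4:47207655-47313167.

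The values are log2 RPKM, in which reads are scaled by transcript length and by the mapped total of the library, so levels can be compared between genes. The table holds no counts, and the counting error behind each value is unknown. Differences between groups were tested with limma in a fit of all 3 groups. A gene was called, and is said to have risen or fallen, where the change exceeded 1.5-fold and the raw p lay below 0.01, and p-values adjusted by Benjamini-Hochberg over all 23366 genes are given beside it. Over the 8410 genes with a mean log2 level above 0, 2 mice stood apart from their groups: the median correlation with the other mice of the group was 0.895 in old-OSKM mouse 4 and 0.962 in young mouse 4, against 0.968 to 0.986 in the other mice. Results are also given without these 2 mice. Both had the highest level of most members, so leaving them out lowers the young and old-OSKM means. The smaller differences without them therefore follow in part from this choice. The acinar markers Cpa1 and Cela1 had mean log2 levels of 10.18 and 10.36 in young mice, so the defining markers of the exocrine pancreas were present.

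The members covered a wide range of levels. Col4a1, a chain of the most widespread type IV network, was the highest in every group, at 4.97 ± 1.68 RPKM in the 4 young, 3.02 ± 0.311 in the 5 old and 4.49 ± 1.56 in the 4 old-OSKM mice (mean ± SD). Col6a2, Col6a1, Col4a2, Col15a1 and Col6a3 followed in that order in all groups. Col18a1 was seventh, with 1.32 ± 0.268 RPKM in young mice. Col4a3, a chain known from kidney glomerulus, was the lowest, with 0.279 ± 0.0715 RPKM in young, 0.15 ± 0.0357 in old and 0.188 ± 0.0211 in old-OSKM mice. Col4a5 and Col6a6 exchanged places between the groups, and 8 of the 10 ranks were held by the same gene in all 3 groups. Between neighbours in this order the values of single mice overlapped in all groups from Col4a1 down to Col6a3, whereas Col18a1 lay wholly below Col6a3 in young and old mice and Col4a3 lay below the next gene in every group. The spread differed between groups: the SD of the members on the log2 scale was 0.09 to 0.34 in old mice, with a median of 0.14, while the medians were 0.41 in young and 0.40 in old-OSKM mice. Mouse 4 was the highest for 8 of 10 members among the young and for 9 of 10 among the old-OSKM mice.

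**Figure D2:**
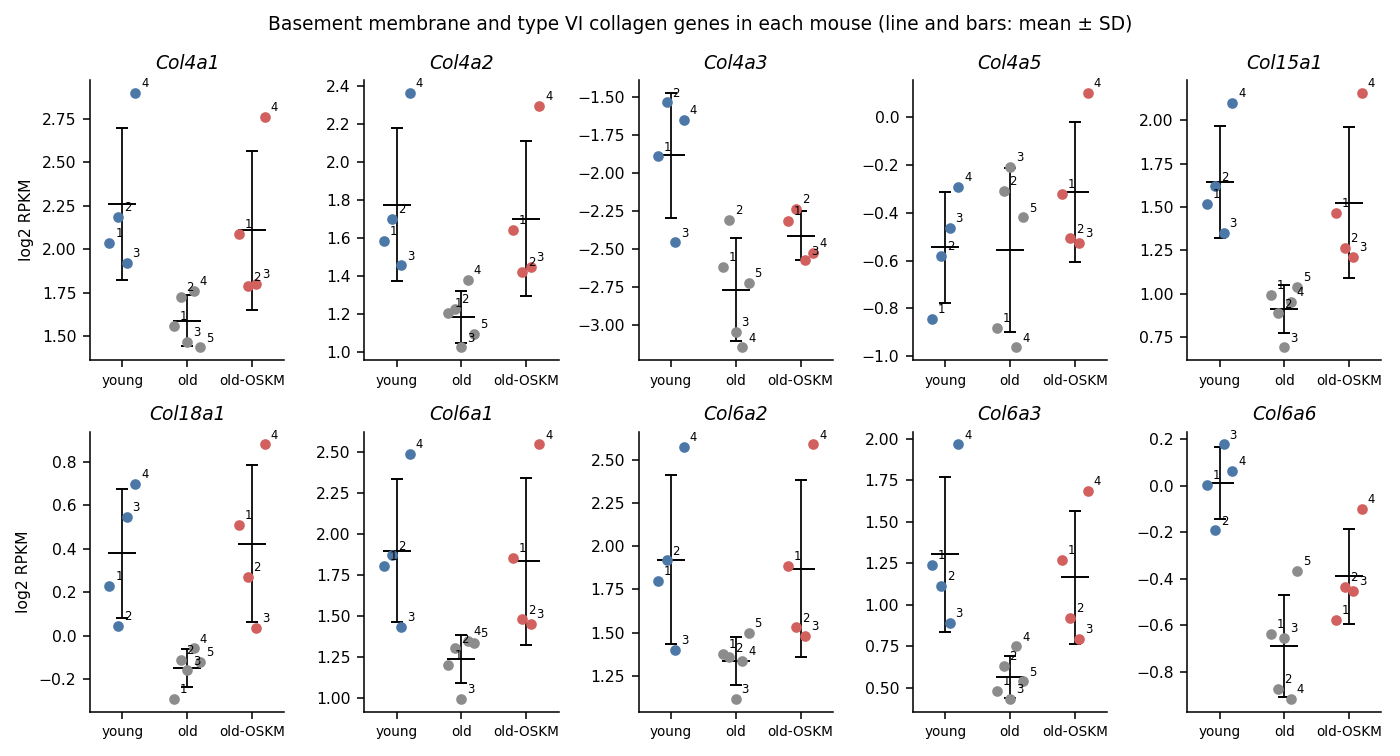
Each panel shows 1 gene, with the log2 RPKM of every mouse as a point labelled with its number (young blue, old grey, old-OSKM red) and the mean ± SD of each group in black. The old mean lies below the young mean in every panel, by a clear margin in all but Col4a5, and mouse 4 is the highest old-OSKM point in every panel except Col4a3.

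The first comparison asked which of these collagens differ with age. Old mice had lower mean levels than young mice for 10 of 10 members, with a median difference of -0.67 on the log2 scale against 0.00 over all genes. Of the 10, Col4a3, Col15a1, Col6a3 and Col6a6 fell, which is 4 of 10 members where 0.437% of all genes fell by the same rule. The raw p was below 0.05 for 9 of 10 members, against 2.52% of all genes in that direction. The 2 groups had no overlapping values in 7 of 10 members, against 1.22% of all genes. No member reached an adjusted p below 0.05, as 0.0813% of all genes did, and the lowest was 0.0978, for Col6a6. The comparison covers 5 against 4 mice, in which the smallest exact permutation p is 0.0079. In whole pancreas, fewer matrix-producing cells and less RNA per cell cannot be told apart.

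Among the type IV chains, Col4a1 and Col4a2 encode the partners of the network found in nearly all basement membranes. Col4a1 had log2 levels of 2.04, 2.18, 1.92 and 2.90 in the young mice and of 1.56, 1.73, 1.47, 1.76 and 1.43 in the old mice. Every old mouse lay below every young mouse, although the difference of -0.67 ± 0.23 (SE, exact permutation p = 0.0079, adjusted p = 0.669 by limma) did not meet the call rule. Col4a2 had levels of 1.58, 1.70, 1.46 and 2.36 in young and of 1.21, 1.22, 1.02, 1.38 and 1.09 in old mice, again without overlap, a difference of -0.59 ± 0.21 (exact permutation p = 0.0079, adjusted p = 0.691 by limma).

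Col4a3 and Col4a5 encode chains of the other type IV network, known for its loss in Alport syndrome. Col4a3 had levels of -1.89, -1.54, -2.46 and -1.65 in young and of -2.62, -2.31, -3.05, -3.15 and -2.72 in old mice. It fell by 0.88 ± 0.20 on the log2 scale (exact permutation p = 0.024, adjusted p = 0.243 by limma), with young mouse 3 inside the range of the old mice. Its partner Col4a5 ran from -0.84 to -0.29 in young and from -0.96 to -0.21 in old mice, and the difference of -0.01 had a 95% interval from -0.43 to 0.40. Col4a3 is expressed at so low a level that small changes in RPKM make large changes on the log scale: with a pseudocount of 1 the differences of all members lay between -0.54 and -0.00057, and none was called.

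The collagens XV and XVIII sit at the border between basement membrane and stroma. Col15a1 had levels of 1.52, 1.62, 1.35 and 2.10 in young mice and of 0.99, 0.89, 0.69, 0.95 and 1.04 in old mice. It fell by 0.73 ± 0.20 (1.66-fold, exact permutation p = 0.0079, adjusted p = 0.411 by limma), with a clear gap between the lowest young and the highest old mouse. Col18a1 had levels of 0.23, 0.05, 0.55 and 0.70 in young and of -0.29, -0.11, -0.16, -0.06 and -0.12 in old mice, also without overlap. Its difference of -0.53 ± 0.17 (exact permutation p = 0.0079, adjusted p = 0.604 by limma) met the p threshold of the call rule but was 1.44-fold, below the fold threshold.

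For type VI, Col6a1 and Col6a2 encode the short chains that assemble with a long chain, most often that of Col6a3. Col6a3 had levels of 1.24, 1.12, 0.89 and 1.97 in young mice and of 0.48, 0.63, 0.43, 0.75 and 0.54 in old mice, and it fell by 0.74 ± 0.22 (1.67-fold, exact permutation p = 0.0079, adjusted p = 0.548 by limma). Col6a1 had levels of 1.80, 1.87, 1.43 and 2.49 in young and of 1.20, 1.30, 0.99, 1.34 and 1.33 in old mice, a difference of -0.66 ± 0.24 without overlap (exact permutation p = 0.0079, adjusted p = 0.699 by limma). Col6a2 ran from 1.40 to 2.57 in young and from 1.12 upward in old mice, and the difference was -0.58 ± 0.25 (exact permutation p = 0.016, adjusted p = 0.845 by limma), and young mouse 3 lay below old mouse 5.

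Col6a6 encodes an alternative long chain of type VI with a more limited distribution. Its levels were 0.00, -0.19, 0.18 and 0.06 in young mice and -0.64, -0.87, -0.65, -0.91 and -0.37 in old mice. It fell by 0.70 ± 0.13 (1.63-fold, exact permutation p = 0.016, adjusted p = 0.0978 by limma), and young mouse 4 was not the highest of its group here.

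Single mice weighed on these calls. Without young mouse 4, Col4a3 and Col6a6 were the only 2 members called, against 0.342% of all genes in that direction. Without young mouse 3 the call was met by 7 members, against 0.659% of all genes, and without old-OSKM mouse 4, which enters through the shared variance, by 7 against 0.501%. Without both mice that stood apart, 8 of 10 members had a raw p below 0.01, against 0.993% of all genes in that direction, but the differences were smaller, with a median of -0.46. In that fit 2 members, Col4a3 and Col6a6, exceeded 1.5-fold as well, against 0.398% of all genes. The sample identifiers form 2 runs, and the second held young mice 3 and 4, old mouse 5 and no old-OSKM mouse. Run and group are therefore partly mixed. With the run of sample identifiers as a term in the fit, Col6a3 differed by -0.70 and lost its call.

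**Figure D3:**
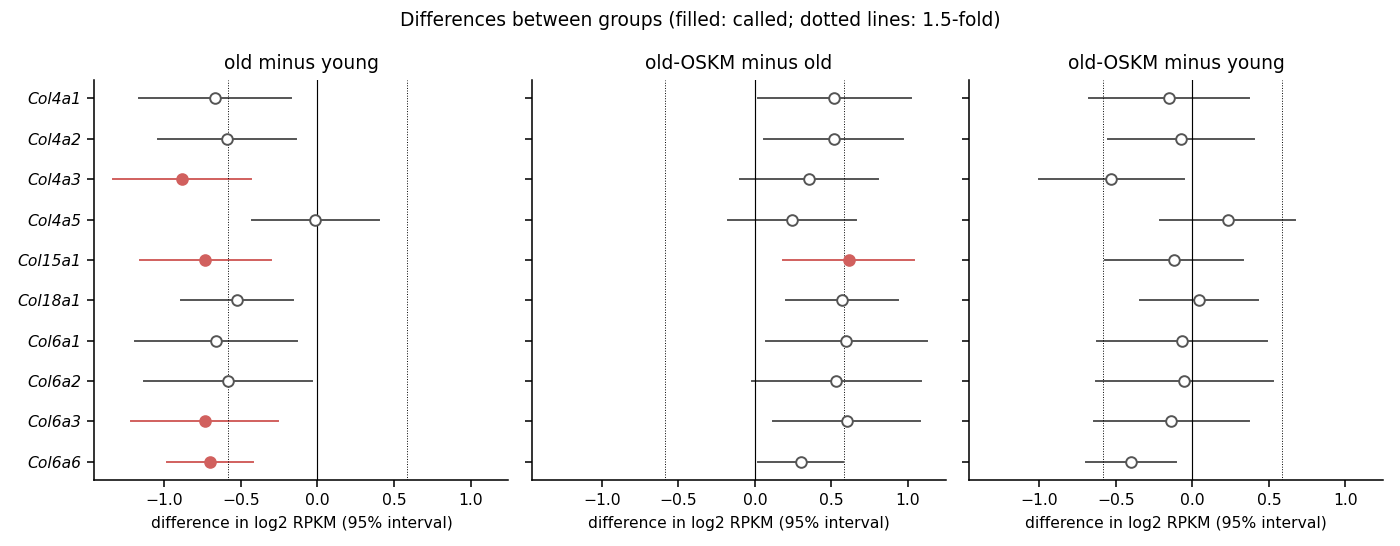
Points give the difference of group means in log2 RPKM for each gene and lines the 95% interval from the limma fit, with called genes filled in red and dotted lines at 1.5-fold. In the comparison of old with young mice 4 genes are filled, in that of old-OSKM with old mice only Col15a1, and in that of old-OSKM with young mice none.

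The second comparison asked how the same genes stood in old mice after a cycle of OSKM. This comparison shares the old mice with the first, so the signs of the 2 sets of differences are not independent. The old-OSKM mean was above the old mean for 10 of 10 members, with a median difference of 0.53 against -0.04 over all genes. Col15a1 rose, 1 of 10 members where 0.582% of all genes rose by the same rule. The raw p was below 0.05 for 7 of 10, against 3.98% of all genes in that direction, and the groups had no overlapping values in 6 of 10, against 1.02% of all genes. No adjusted p of a member lay below 0.547, and 0.00428% of all genes had one below 0.05. The groups held 4 and 5 mice.

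Col15a1 had levels of 1.46, 1.26, 1.21 and 2.16 in the old-OSKM mice, all above the highest old mouse at 1.04. It rose by 0.61 ± 0.20 (1.53-fold, exact permutation p = 0.0079, adjusted p = 0.547 by limma). This call stood close to both thresholds and was met in 4 of the 13 fits that left out a single mouse. It was lost without young mouse 1 or 2, without any 1 of the old mice, and without old-OSKM mouse 1 or 4. Col18a1, the other collagen of its kind, had levels of 0.51, 0.27, 0.03 and 0.88, above all old mice, with a difference of 0.57 ± 0.17 (exact permutation p = 0.0079) that met the p threshold and was 1.49-fold and so just short of a call. Which of the pair was called depended on the fit: with the run of sample identifiers as a term Col18a1 was called at 0.63, while Col15a1, at 0.64, missed the p threshold.

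Col4a1 had levels of 2.09, 1.79, 1.80 and 2.76 in old-OSKM mice, and the lowest of these lay just above the highest old mouse at 1.76. The difference was 0.52 ± 0.23 (exact permutation p = 0.0079). Col4a2 had levels of 1.64, 1.42, 1.45 and 2.29 and a difference of 0.51 ± 0.21 (exact permutation p = 0.0079). In both genes old-OSKM mice 2 and 3 lay near the old mice, mouse 1 above them and mouse 4 far above.

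Col4a3 and Col4a5 overlapped between old-OSKM and old mice. Col4a3 had levels of -2.32, -2.24, -2.58 and -2.53 in old-OSKM mice, with a difference of 0.35 (95% interval -0.10 to 0.80). Col4a5 had levels of -0.32, -0.51, -0.53 and 0.10, with a difference of 0.24 (95% interval -0.17 to 0.66).

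In type VI, Col6a1 had levels of 1.85, 1.48, 1.45 and 2.55 and a difference of 0.60 ± 0.24 (exact permutation p = 0.0079), without overlap with the old mice. Col6a3 had levels of 1.27, 0.92, 0.79 and 1.68 and a difference of 0.60 ± 0.22 (exact permutation p = 0.0079), also without overlap. Col6a2 differed by 0.53 ± 0.25 (exact permutation p = 0.016), with old-OSKM mouse 3 just below old mouse 5. Col6a6 had levels of -0.57, -0.43, -0.45 and -0.10, and the difference of 0.30 ± 0.13 (exact permutation p = 0.087) was 1.23-fold, with old mouse 5 inside the old-OSKM range.

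Without old-OSKM mouse 4 no member was called in this comparison. Without both mice that stood apart the differences ran from 0.10 to 0.43, with a median of 0.34, and 4 of 10 members had a raw p below 0.01, none with a change above 1.5-fold, where 0.92% of all genes were higher by that p. The methods of the study name a correction by the number of reads of each sample. A per-mouse covariate for it was inferred on a relative scale, from the study's corrected group means, and may not equal the read total itself. In it, old-OSKM mouse 4 had the most extreme value, 0.97, followed by young mouse 4 with 0.23, against -0.20 to 0.04 in the other mice. With that covariate in the fit the differences between old-OSKM and old mice ran from 0.10 to 0.40, with a median of 0.31, and none of the 10 was called. By limma 2 of 10, Col15a1 and Col18a1, had a raw p below 0.05, against 7 without the covariate. Between old and young mice the median was -0.49 in this fit. Col15a1, at -0.57, fell short of 1.5-fold there and lost its call, while Col4a3, Col6a3 and Col6a6 kept theirs.

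In the third comparison, old-OSKM with young mice, none of the 10 members was called, while 0.625% of all genes were, in either direction. The adjusted p of the members was at least 0.706, and 0.0428% of all genes had one below 0.05. By raw p alone, 2 of the 10 lay below 0.05, against 2.16% of all genes in that direction. These were Col6a6, at -0.40 (95% interval -0.70 to -0.11, exact permutation p = 0.057), and Col4a3, at -0.53 with an SE of 0.22 (exact permutation p = 0.086). In Col6a6 the highest old-OSKM mouse, at -0.10, lay above the lowest young mouse, at -0.19. For the other members the intervals spanned 0 and were wide, as for Col4a1 (-0.68 to 0.37), Col15a1 (-0.57 to 0.33) and Col6a1 (-0.62 to 0.49). An interval that spans 0 does not show that old-OSKM and young levels were equal.

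Differences between the levels of chains within each mouse were compared next. Col4a1 exceeded Col4a2 on the log2 scale by 0.48 ± 0.04 in the 4 young, 0.40 ± 0.07 in the 5 old and 0.41 ± 0.06 in the 4 old-OSKM mice (mean ± SD). The SD of this difference between chains was several times smaller than that of either gene alone in young and old-OSKM mice. Col6a1 and Col6a2 differed by -0.02 ± 0.05 in young, -0.10 ± 0.08 in old and -0.04 ± 0.01 in old-OSKM mice. Col6a3 lay below Col6a1 by a difference of -0.59 ± 0.11, -0.67 ± 0.10 and -0.67 ± 0.14 in the same groups. Col15a1 exceeded Col18a1 by 1.27 ± 0.33, 1.06 ± 0.17 and 1.10 ± 0.15, and the SD of this difference in young mice was no smaller than that of either gene alone. Col4a1 and Col6a1, which do not assemble together, differed by 0.36 ± 0.11, 0.35 ± 0.15 and 0.28 ± 0.06, a spread like that of Col6a3 and Col6a1. Whether partners vary less against each other than other pairs was not tested. In 15 two-sided exact permutation tests of these 5 differences between the groups, the smallest p was 0.086 and the smallest adjusted p 0.54. The largest shift between groups was -0.21, for Col15a1 against Col18a1 between old and young mice (exact p = 0.26).

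Over the 13 mice, the levels of the abundant members followed each other. The Pearson r was 0.99 between Col4a1 and Col4a2 and 0.99 between Col6a1 and Col6a2. All mice share the group differences and the 2 mice that stood apart, so deviations from the group means were also compared without these mice, over 11 mice. The r of the deviations was then 0.93 for Col4a1 with Col4a2, 0.96 for Col6a1 with Col6a2 and 0.94 for Col15a1 with Col6a2. For Col18a1 the median r with the other 9 members was 0.01 by this measure, and for Col6a6 it was -0.32, against 0.76 for Col6a1. These correlations are descriptions over few mice.

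The genes whose pattern over the mice was most like Col4a1, among 8407 other genes with a mean log2 level above 0, were Col4a2, Sparc (an extracellular protein that binds collagen), Nid1 (nidogen, the link between the laminin and collagen IV networks), Col6a3 and Col6a1. Their Pearson r ran from 0.97 to 0.99 and was 0.91 to 0.97 without the 2 mice farthest from the median of Col4a1, which were the same 2. Those most like Col6a1 were Col6a2, Igfbp6, Sparc, Col1a2 and Nid1, with r from 0.98 to 0.99, and 0.94 to 0.97 without these mice. Spearman's rho ran from 0.93 to 0.99 over both sets.

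The other genes of the pathway were taken from lists by role. The 4 remaining chains of types IV and VI, Col4a4, Col4a6, Col6a4 and Col6a5, had young means from -5.08 to -2.25, below all members. None of the 4 was called, and their median difference between old and young mice was 0.02. Between old-OSKM and old mice Col4a6 differed by 0.64 ± 0.23 (adjusted p = 0.547 by limma).

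Of the 9 fibrillar collagens, 6 fell with age: Col1a1, Col3a1, Col5a1, Col5a2, Col5a3 and Col11a1. Their differences ran from -1.04 for Col3a1 to -0.62 for Col5a3, and the median of the list was -0.83. Col1a1 rose by 0.88 ± 0.26 and Col1a2 by 0.89 ± 0.28 between old and old-OSKM mice. Col11a1 was also lower in old-OSKM than in young mice, where it fell by 0.77 ± 0.23, though its level was very low.

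Among the protein partners of the network, the 11 laminin chains come first. None of them was called, and the median difference between old and young mice was -0.18. Lama4, the laminin chain of vessels, differed by -0.58 ± 0.18 (adjusted p = 0.584 by limma) and Lamb1 by -0.54 ± 0.19. Of the 12 other basement membrane proteins none was called with age, and Nid2 differed by -0.54 ± 0.17 (adjusted p = 0.61 by limma) while Smoc1 differed by 0.25 ± 0.07 in the other direction. Fbln1 (fibulin, which binds several basement membrane proteins) rose by 0.88 ± 0.24 between old and old-OSKM mice.

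Of the 14 receptors and anchors none was called in any comparison. Cspg4, a proteoglycan of pericytes that binds type VI collagen, differed by -0.53 ± 0.19 with age, and Antxr1, an anthrax toxin receptor that binds collagens, by 0.61 ± 0.22 between old-OSKM and old mice. Of the 18 genes of collagen synthesis and export none was called, and the median difference was -0.04 with age and 0.08 between old-OSKM and old mice. P4ha3, a subunit of a prolyl hydroxylase, differed by -0.70 ± 0.27 with age, and the collagen chaperone Serpinh1 by 0.45 ± 0.20 between old-OSKM and old mice.

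Among the 17 genes of cross-linking and turnover, 3 fell with age. Pxdn (peroxidasin, which forms the sulfilimine bonds of type IV collagen) fell by 0.59 ± 0.18, Mmp2 (a gelatinase that cleaves type IV collagen) by 0.69 ± 0.19 and Loxl1 (a lysyl oxidase) by 0.58 ± 0.19. Loxl1 rose by 0.62 ± 0.19 between old and old-OSKM mice, and Timp4, an inhibitor of metalloproteinases, was 0.81 ± 0.21 higher in old-OSKM than in young mice.

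**Figure D4:**
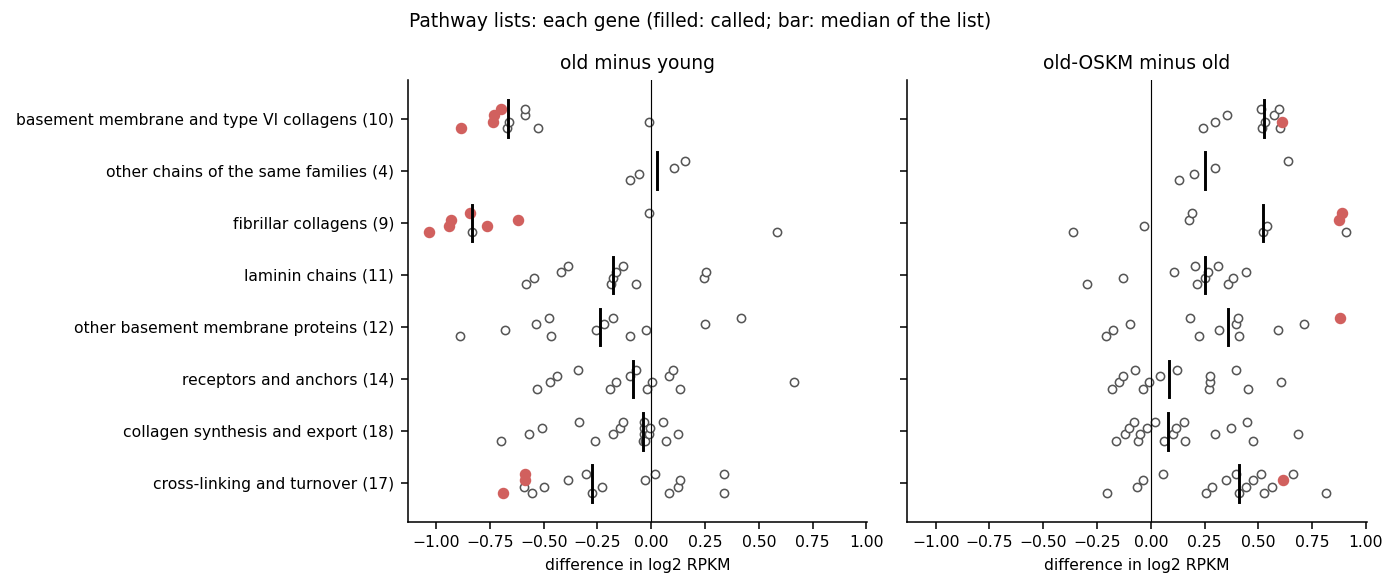
Each point is a gene of a list, placed by its difference in log2 RPKM between old and young mice (left) and between old-OSKM and old mice (right), with called genes in red, the list's median as a bar and the number of genes in brackets. The medians of the 10 members (-0.67 and 0.53) and of the fibrillar collagens (-0.83 and 0.52) lie farther from 0 than those of the other pathway lists plotted, and marker lists of cell types are not shown.

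Group means of markers of the cells that make matrix mostly differed in the same direction as those of the members. All 12 endothelial markers had a lower mean in the old group than in the young and a higher mean in the old-OSKM group than in the old, none of them called, and their summed level ran from 24.7 to 40.0 RPKM in young, from 21.3 to 25.9 in old and from 24.4 to 51.2 in old-OSKM mice. All 10 fibroblast and stellate markers had the same signs. Of these, Fn1 fell with age, Fn1 and Thy1 rose between old and old-OSKM mice, and the sums ran from 44.0 to 76.9, from 32.2 to 42.9 and from 40.7 to 115.5 RPKM. The 10 pericyte and smooth muscle markers summed to 10.8 to 16.6, 9.36 to 11.4 and 10.2 to 22.0 RPKM, with none called. With age 9 of these 10 were lower, and 9 were higher between old and old-OSKM mice. Single mice overlapped between the groups. The mean log2 level of this list ran from -0.08 to 0.46 in young, -0.27 to 0.01 in old and -0.11 to 0.74 in old-OSKM mice. In each of these 3 lists the highest young and old-OSKM mouse was mouse 4. The first genes of these lists, Pecam1, Cdh5, Pdgfra, Dcn, Pdgfrb and Rgs5, were all detected, with young means from 0.63 to 3.75 on the log2 scale.

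With the mean of the fibroblast and stellate list as a term in the fit, the differences of the members between old-OSKM and old mice ran from -0.11 to 0.24, with a median of 0.04, and 0 of 10 had a raw p below 0.05, against 2.04% of all genes that were higher by this p. Between old and young mice they ran from -0.78 to 0.12, with a median of -0.25, and 4 of 10 had a raw p below 0.01, against 1.04% of all genes in that direction. Col4a3 and Col6a6 were the 2 that remained called, at -0.78 and -0.65, against 0.364% of all genes. Between old-OSKM and young mice the median was -0.23, against -0.10 without the term, and 7 of 10 members were lower with a raw p below 0.05, against 2.42% of all genes. Col6a3 differed by -0.28 and Col4a1 by -0.30 in this fit, and none was called. With the endothelial list as the term the medians were -0.34 with age and 0.24 between old-OSKM and old mice, and with the pericyte list -0.43 and 0.24. Such a term removes whatever the list and the members share, so these fits do not separate them.

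**Figure D5:**
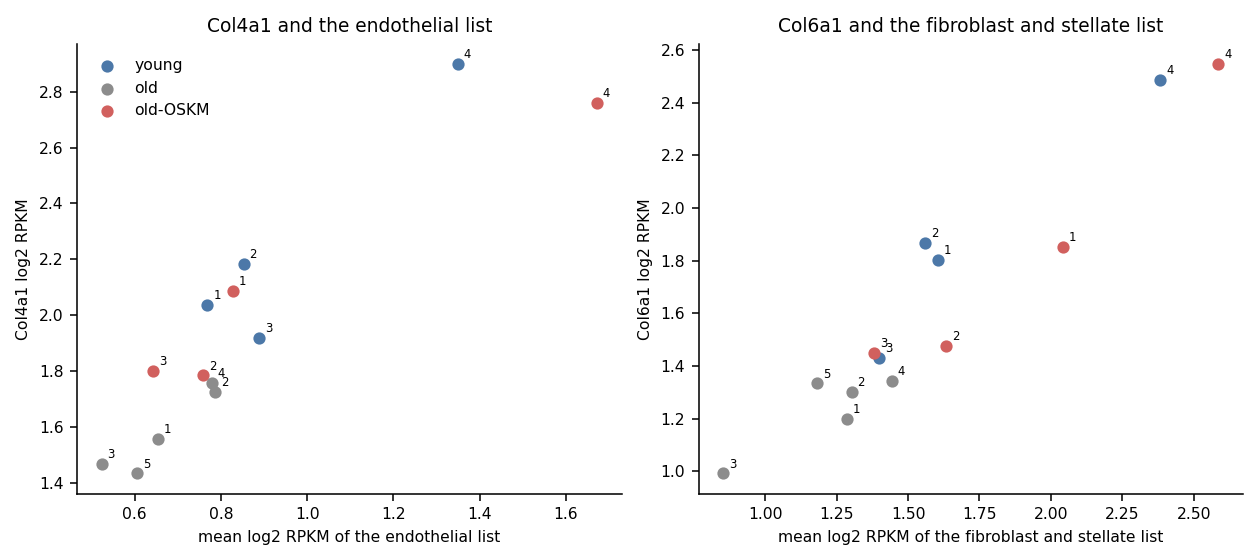
Each point is a mouse, labelled with its number: left, Col4a1 against the mean log2 RPKM of the 12 endothelial markers, right, Col6a1 against that of the 10 fibroblast and stellate markers. Young mouse 4 and old-OSKM mouse 4 lie at the upper right of both panels, and the old mice at the lower left.

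Other cell types differed as well. Between old and old-OSKM mice 8 of 8 macrophage markers and 7 of 7 adipocyte markers were higher, 1 called in each list (C1qc and Plin1), with summed levels of 11.5 to 19.7 RPKM in old and 17.5 to 47.8 in old-OSKM mice for macrophages. For adipocytes, cells that are each wrapped in a basement membrane, the sums were 3.49 to 6.44 and 3.87 to 15.6 RPKM. The mean log2 level of the adipocyte list was 0.33 and -0.35 in old-OSKM mice 1 and 4. In old-OSKM mice 2 and 3 it was -2.24 and -2.19, within the old range of -2.42 to -1.97. Between old and old-OSKM mice all 8 islet markers were lower and all 7 B, plasma and T cell markers higher, none of them called. Of the 7 B, plasma and T cell markers Jchain rose with age, and Jchain, Ms4a1 and Cd3g were higher in old-OSKM than in young mice by the call rule. No marker of the islet, mesothelial or acinar lists was called in the 3 comparisons. For the acinar list this was partly set in advance, because the deposited values were quantile normalized, which fixes the highest ranks. Ctrb1 and Amy2a5 had log2 values of 11.11 and 10.80 in every mouse, with an SD of 0, so a change in acinar RNA could not show there. The part of any of these cell types in the results for the members was not tested.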

How the data were processed

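Pancreas RNA, depleted of rRNA, was sequenced with paired ends, 1 library per mouse. The authors aligned reads with STAR 2.3.0e to mm10, estimated RPKM per isoform with Casper without reads mapping to 5 or more places, summed them per Entrez gene, and deposited log2 values after quantile normalization. Counts and absolute read totals are not used here, so depth per mouse is known only through an inferred relative covariate. The deposited log2 RPKM of 23366 genes were fitted as they stand with limma 3.58.1 (R 4.3.3), and 23273 had a RefSeq symbol. The members and lists were chosen with earlier results of these data known. Named genes were the members, list genes that were called or otherwise had the 2 smallest p per comparison, the first 2 markers of a list, and the 5 genes most like Col4a1 and Col6a1; not all are discussed, and markers that were called are named besides, except for a result that is not reported here. In simulated data with 200 shifted genes, 88 of 100 shifted by 1 log2 unit and 98 of 100 shifted by 2 were called, as were 0.332% of unshifted genes. Alternatives covered normalization, pseudocounts, filters, groups fitted, the run of sample identifiers, the read-total correction, call rules and each mouse left out. The normalization alternatives repeated quantile normalization or centred each mouse on its median. They could barely change values already quantile normalized, whose medians spanned 0.000262 on the log2 scale, so they do not test the normalization. The correction's covariate was inferred from the group means in a supplementary table of the study, over 1139 genes.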

Additional observations from a re-analysis of the deposited data

How the results depend on the processing

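The number of members called in old against young mice was 4, and it was 0 with a pseudocount of 1, 2 in the first run of sample identifiers alone, and 0 by adjusted p. That first run held young mice 1 and 2 only, without young mouse 4, and lacked old mouse 5. It was 9 both by a raw p below 0.05 without a fold threshold and by exact permutation tests of each member, whose smallest p is 0.0079. Permutation was run for the members only, so the share of all genes passing it is not known in any comparison. In old-OSKM against old mice it was 1, and it was 0 with a pseudocount of 1, in the first run alone, with the read-total correction and by adjusted p, and 7 by the loose raw p and by permutation. In old-OSKM against young mice it was 0, and 2 by the loose raw p. With the identifier run as a term Col6a3 lost its call with age, and Col18a1 replaced Col15a1 between old-OSKM and old mice. With only the 2 groups compared in the fit, Col15a1 lost its call between old-OSKM and old mice and Col6a3 gained one. With age, Col4a1 and Col6a1 gained calls in that fit. With alternatives chosen after the data were seen (both mice that stood apart left out, or the mean of the endothelial, fibroblast or pericyte list as a term), it was 2, 2, 2 and 2 in the first comparison and 0, 0, 0 and 0 in the second. With single mice left out it ran from 2 to 7, from 0 to 2 and from 0 to 1 in the 3 comparisons. By the same rule 0.398% of all genes fell with age without both mice that stood apart, and 0.364% with the fibroblast term. Where no share of all genes stands beside the count of an alternative fit, here or above, that share is not known.

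Some differences changed sign. Between old and young mice Col4a5 was 0.0661 with the identifier run as a term, 0.1204 in the first run, 0.09 with the read-total correction, 0.0721 without both mice that stood apart, 0.1435, 0.1187 and 0.1105 with the endothelial, fibroblast and pericyte terms, and -0.1122 to 0.0893 without single mice. Between old-OSKM and old mice the fibroblast term turned differences of 0.51 to 0.60 to -0.0701 for Col4a1, -0.0241 for Col4a2, -0.0337 for Col6a1 and -0.11 for Col6a2. Between old-OSKM and young mice Col4a2 was 0.0582 in the first run and Col6a2 0.0129, or 0.029 with the run as a term. Col18a1 was -0.0065 with the read-total correction, -0.0014 without both mice that stood apart, and -0.0435 and -0.0455 with the fibroblast and pericyte terms. Without single mice Col4a1 ran from -0.3682 to 0.0613, Col4a2 from -0.2724 to 0.1203, Col15a1 from -0.3312 to 0.0298, Col18a1 from -0.1075 to 0.1745, Col6a1 from -0.3034 to 0.1312, Col6a2 from -0.291 to 0.1652 and Col6a3 from -0.3099 to 0.0835. Among the within-mouse differences, that of Col6a3 and Col6a1 was 0.0087 between old and young mice with a pseudocount of 1, and -0.0097 and -0.0592 between old-OSKM and old mice with pseudocounts of 0.1 and 1. Without single mice the difference of Col4a1 and Col4a2 ran from -0.0148 to 0.0292, of Col6a3 and Col6a1 from -0.0339 to 0.067, and of Col15a1 and Col18a1 from -0.0187 to 0.095, all between old-OSKM and old mice, that of Col4a1 and Col6a1 from -0.0495 to 0.0565 between old and young mice, and that of Col6a1 and Col6a2 from -0.034 to 0.0047 between old-OSKM and young mice. The cause of these changes was not tested.

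No paired analysis was possible because the replicate numbers only follow the order of the samples and pair no mice. The groups are of 4 or 5 mice, depth per mouse is known only on an inferred relative scale, and low levels such as that of Col4a3 depend on the pseudocount.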
